A study of Mus musculus with 8 samples.

Results

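The Zfp genes are the mouse zinc finger genes that carry the symbol Zfp and a number. They were selected by symbol alone, leaving out Zfp36 and its relatives Zfp36l1 and Zfp36l2, whose proteins bind AU-rich elements of mRNAs through another type of finger. No measured value entered the selection, and 224 of 10690 genes in the deposited tables were members. Of these, 183 were in all 3 tables of genes, which held 9875 genes in common. The cells were NIH3T3, an established line of mouse fibroblasts, and RNA was profiled by QuantSeq FWD, a method that reads from near the poly(A) site (PAS) of a transcript. NT cells were nontreated, AS cells were kept for 1 h in medium with 250 μM sodium arsenite, an oxidative stressor, and RC4 and RC8 cells were washed after that treatment and grown in normal medium for 4 h and 8 h. Each of the 4 conditions had 1 library, so there were no replicates, no test was possible, and every interval below covers counting error or the spread over genes and not the variation between cultures.

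Most Zfp proteins are sequence-specific DNA-binding proteins built from repeated C2H2 fingers, in which pairs of cysteines and histidines hold a zinc ion. Many carry a KRAB domain, which recruits Trim28 and the histone methyltransferase Setdb1, and such proteins are known for silencing retroelements and imprinted genes. Other members work on RNA, ribosomes, ubiquitin or SUMO. The genes often lie in clusters of similar copies. A gene can use several PASs, in its 3′-most exon or in an intron, and the latter gives a transcript without the downstream exons.

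Coding sequences in GENCODE vM1, an annotation of the mm9 genome that the tables use, were found for 211 of the 224 members. A finger pattern was found in 205 of them (97.2%), with a median of 9 fingers and up to 36. No finger was found in Zfp330, Zfp365, Zfp503, Zfp703, Zfp839 and Zfp950. A KRAB motif was found in 86 members (40.8%), compared with 1.28% of all coding genes and 33.0% of all coding genes with a finger. Chromosome 7 held 53 members and chromosome 17 held 27. In 32 clusters, with at most 500 kb between neighboring members, there were 125 members, of which 70 had a KRAB motif.

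The following sequences end at intron PASs of members whose intron usage is described below. Each is 30 bases of the mm9 genome on the strand of the gene, read 5′ to 3′ up to the PAS, with the hexamers AATAAA and ATTAAA in capitals where present.

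Zfp207, chr11:80209615-80209644, plus strand: aaacttcattgtAATAAAatgagacaaaaa

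Zfp444, chr7:6126206-6126235, plus strand: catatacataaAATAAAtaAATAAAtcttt

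Zfp655, chr5:145998732-145998761, plus strand: ttgtagtaaagaaattttgtagtattttaa

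Zfp800, chr6:28192240-28192269, minus strand: ctttctgtttAATAAActtataagtggtca

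Zfp451, chr1:33854578-33854607, minus strand: ATTAAAgtgtatggagtttcccttcctgaa

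Zfp367, chr13:64247734-64247763, minus strand: tgatgtaaaaagcaaaaaaaaaaaaaaaaa

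Zfp932, chr5:110436408-110436437, plus strand: aagcaacagtgaagaagaaaaaaaaaaaaa

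Over all distinct intron PASs, 52.5% of 40 PASs of Zfp genes had one of these hexamers in the 30 bases (37.5% to 67.1%, 95% Wilson interval), compared with 47.4% of 2135 PASs of all genes. Among PASs of 3′-most exons, it was 60.9% of 373 for Zfp genes (55.8% to 65.7%) and 48.7% of 18269 for all genes. A tract rich in A at the PAS, as in the last sequences above, was found at 27.5% of intron PASs of Zfp genes (16.1% to 42.8%) and at 27.5% of those of all genes. Oligo(dT) can prime at such tracts in the genome-encoded part of a transcript, and their part in the reads was not tested.

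The identity of the cells was checked first. All 10 fibroblast markers examined were listed, among them Col3a1, Pdgfrb and S100a4. Of the defining markers of other cell types, 0 of 5 epithelial, 0 of 3 leukocyte and 0 of 3 endothelial genes were listed. The libraries held 22441452 to 22996421 reads on listed genes. Relative to the median gene, a scale described below, 0 of 10 fibroblast markers were lower by 1.5-fold or more in AS. At 4 h of recovery 2 were lower and at 8 h 5, including Col3a1 and Pdgfrb in both. The shares of all genes that were lower were 10.2%, 17.4% and 12.1% in AS, RC4 and RC8.

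Zfp genes were expressed at low levels. Levels are given in RPM, the reads of a gene per 1000000 reads on listed genes. In NT the median Zfp gene had 11.5 RPM (quartiles 6.45 and 20.9), compared with 31.6 for the median of all genes. The NT library had a median of 266.5 to 281.5 reads per Zfp gene, depending on the table, and 29.2% to 35.6% of the members were under 200 reads, compared with 10.9% to 13.5% of all genes. Together the members had 0.446% to 0.460% of the reads in NT, 0.420% in AS, 0.369% at 4 h and 0.511% at 8 h of recovery. Their share was thus lowest at 4 h and highest at 8 h of recovery. Since the numbers are shares of a library, a smaller amount of RNA per cell and fewer cells with that RNA cannot be told apart.

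A gene was listed in a table only with at least 50 reads in both libraries, and a larger share of the Zfp genes than of all genes was missing from each table. Of the 224 members, 14 (6.25%) were missing from the table of AS, 32 (14.3%) from that of RC4 and 8 (3.57%) from that of RC8. Over all genes the shares were 2.23%, 5.70% and 2.33%. Counts of members below are therefore of listed members, 210 for AS, 192 for RC4 and 216 for RC8.

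Zfp207, which binds kinetochore and spliceosome proteins, was the most abundant member, with 446.1 RPM in NT, and 467.0, 272.7 and 552.4 under AS, RC4 and RC8. Zfp598, the ubiquitin ligase that marks collided ribosomes, was the fifth most abundant, with 96.8, 112.6, 62.4 and 94.0. Both were thus lowest at 4 h of recovery. The other members of the top 5 in NT were Zfp146 at 124.0, Zfp106 at 122.3 and Zfp706 at 109.7 RPM, and the 5 together made up 19.4% of the summed RPM of all members.

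**Figure D1:**
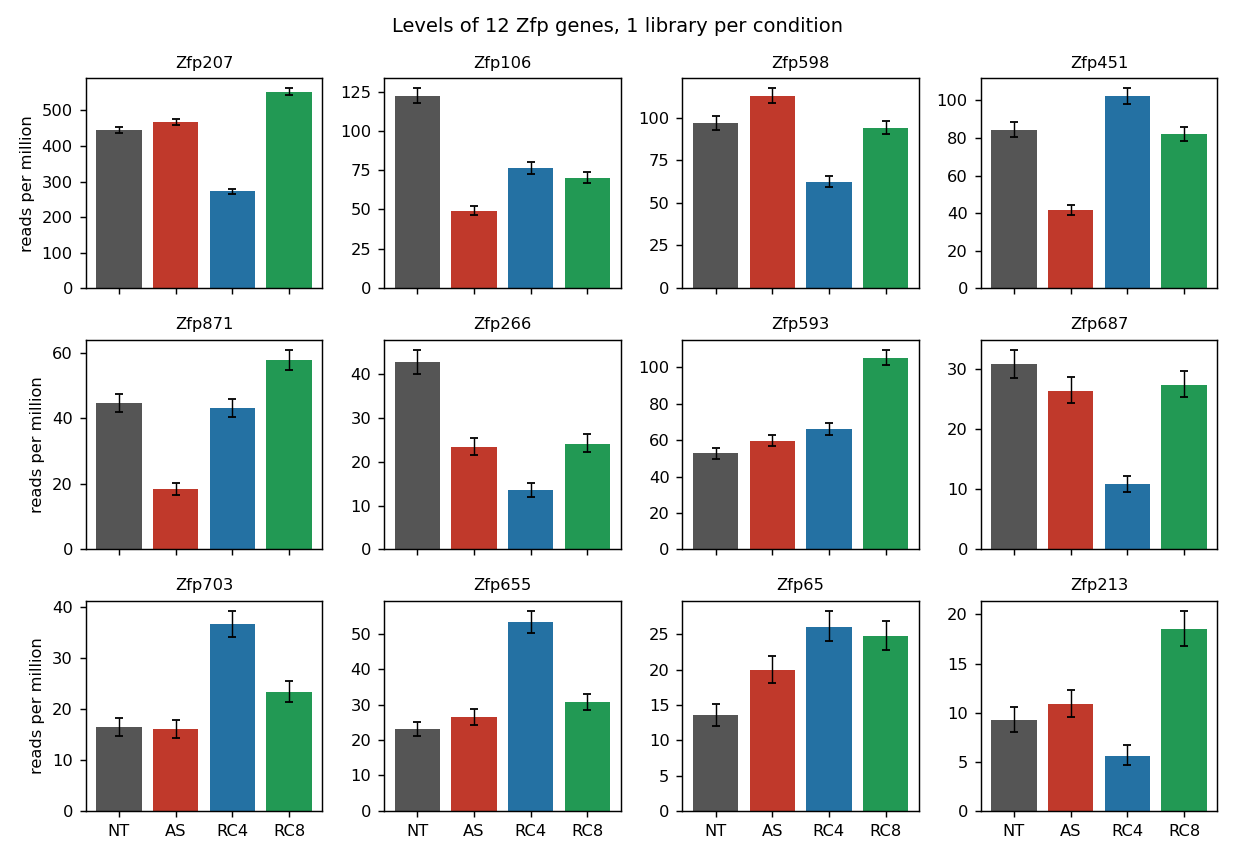
Levels in RPM (y axis, linear, own scale per panel) of 12 Zfp genes in the 1 library of each condition, with 95% Poisson intervals that cover counting error only and NT taken from the table of AS. Zfp106, Zfp451 and Zfp871 are lowest in AS, Zfp266 and Zfp687 are lowest in RC4, Zfp703 and Zfp655 are highest in RC4, and Zfp593 and Zfp213 are highest in RC8.

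To compare conditions, the log2 ratio of reads was taken relative to the median gene of the table, so that the median over all genes is 0. A gene was called higher or lower when it differed by at least 1.5-fold on this scale. In RPM, the median gene itself differed from NT by −0.04 in AS, −0.30 at 4 h and 0.01 at 8 h of recovery on the log2 scale.

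In AS against NT, 11 of 210 Zfp genes (5.24%) were called higher, with 2.07% of all genes called higher. Another 27 (12.9%) were called lower, with 10.2% of all genes. The median Zfp gene was at 0.05 (−0.05 to 0.12, 95% order-statistic interval), and 111 were above 0. With at least 200 reads in each library, 5 of 129 members (3.88%) were called higher and 17 (13.2%) lower, beside 1.28% and 8.82% of all such genes. The part of low read numbers in the shares over all listed members was not tested.

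Zfp106, an RNA-binding protein needed in motor neurons and muscle, was the lowest member with at least 200 reads in AS. It had 122.3 RPM in NT, and 49.1, 76.3 and 70.1 under AS, RC4 and RC8. The log2 change was −1.28 in AS (−1.38 to −1.18, 95% exact interval of the read ratio), −0.38 in RC4 and −0.81 in RC8. It was below NT in all 3 libraries.

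Zfp871 followed, with 44.7 RPM in NT, and 18.3, 43.2 and 57.7 under AS, RC4 and RC8. Its log2 change was −1.24 in AS (−1.41 to −1.08), 0.25 in RC4 and 0.36 in RC8. Zfp217, a repressor found with CtBP and CoREST, had 21.0 RPM in NT, and 9.09, 17.1 and 19.9 under AS, RC4 and RC8. Both were low in AS and within 1.5-fold of NT at both times of recovery.

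Zfp618 had a log2 change of −1.05 in AS (−1.24 to −0.85), with 0.13 in RC4 and 0.09 in RC8. Zfp451, a SUMO ligase, had 85.4 RPM in NT, and 41.5, 102.2 and 81.9 under AS, RC4 and RC8. It changed by −0.98 in AS (−1.10 to −0.87) and by 0.53 in RC4 (0.44 to 0.62). Of these 5 members, the lowest in AS with at least 200 reads, Zfp106 was the exception in staying over 1.5-fold lower in RC8. Over all members the lowest value in AS was −1.75.

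Among members with at least 200 reads, the highest values in AS were closer to NT. Over all members the highest was Zfp788 at 1.53, with 59 reads in NT and a count column of 0. Zfp1 had 10.7 RPM in NT, and 16.9, 7.43 and 12.7 under AS, RC4 and RC8, and Zfp707 had 10.9, 17.3, 6.73 and 19.1. Both had a log2 change of 0.70 in AS (0.47 to 0.94). Zfp930 was at 0.66, Zfp65 at 0.60 and Zfp672 at 0.59, so that none of the 5 reached 2-fold. Apart from Zfp65, they were within 1.5-fold of NT in RC4, with values of −0.22 for Zfp1, −0.40 for Zfp707, 0.02 for Zfp930 and −0.34 for Zfp672.

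In RC4 against NT, 29 of 192 Zfp genes (15.1%) were called higher and 21 (10.9%) lower, with 15% and 17.4% of all genes. In RPM, without the scaling to the median gene, 14 were called higher and 56 lower (29.2%), with 8.04% and 31.8% of all genes, so the balance of the calls turns with the scale. The median Zfp gene was at 0.01 (−0.09 to 0.12) relative to the median gene and at −0.29 in RPM. Relative to the median gene, the middle of the Zfp distribution lay on that of all genes at this time.

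The members with at least 200 reads and the highest values at 4 h of recovery reached over 2-fold. Zfp655 had 23.2 RPM in NT, and 26.5, 53.3 and 30.7 under AS, RC4 and RC8, and its log2 change in RC4 was 1.503 (1.35 to 1.65). Zfp703, a transcriptional co-repressor, had 16.4, 16.0, 36.6 and 23.4 RPM and a log2 change of 1.46 (1.28 to 1.64). Both were highest in RC4.

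Zfp65 had 13.5 RPM in NT, and 19.96, 26.1 and 24.8 under AS, RC4 and RC8. Its log2 changes were 0.60 (0.39 to 0.82), 1.25 (1.05 to 1.45) and 0.87 (0.67 to 1.08), and it was the 1 member called higher in all 3 libraries. Zfp945 and Zfp935 were at 1.17 and 1.14 in RC4.

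At the other end, Zfp266 had 42.8 RPM in NT, and 23.4, 13.5 and 24.2 under AS, RC4 and RC8. Its log2 changes were −0.83 (−0.98 to −0.67), −1.36 (−1.55 to −1.17) and −0.83 (−0.98 to −0.68). Zfp652 had 27.1, 16.3, 10.2 and 18.1 RPM, with log2 changes of −0.67, −1.12 and −0.60. These were the 2 members called lower in all 3 libraries, and both were lowest in RC4. The share of all genes called higher, or lower, in all 3 libraries was not counted.

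Zfp687, a subunit of a chromatin complex with Zmynd8, had 30.8 RPM in NT, and 26.3, 10.8 and 27.4 under AS, RC4 and RC8. Its log2 change in RC4 was −1.21 (−1.43 to −0.998), and it was within 1.5-fold of NT in the other libraries. Zfp638, an RNA- and DNA-binding nuclear protein, was at −0.80 in RC4 and Zfp639 at −0.74, with −0.21 and −0.05 in RC8.

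In RC8 against NT, the distribution of Zfp genes lay to the right of that of all genes except at its upper end. At the 98th percentile the values were 0.99 for Zfp genes and 1.14 for all genes. The median Zfp gene was at 0.18 (0.13 to 0.25), and 148 of 216 (68.5%) were above 0. Of the 216 members, 37 (17.1%) were called higher and 11 (5.09%) lower, with 11.1% and 12.1% of all genes. The first quartile of the Zfp genes was −0.06 and that of all genes −0.31, whereas the third quartiles were 0.46 and 0.31. With at least 200 reads in each library, 16 of 132 members (12.1%) were called higher and 5 (3.79%) lower, beside 9.64% and 10.6% of all such genes, and the median was 0.18.

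**Figure D2:**
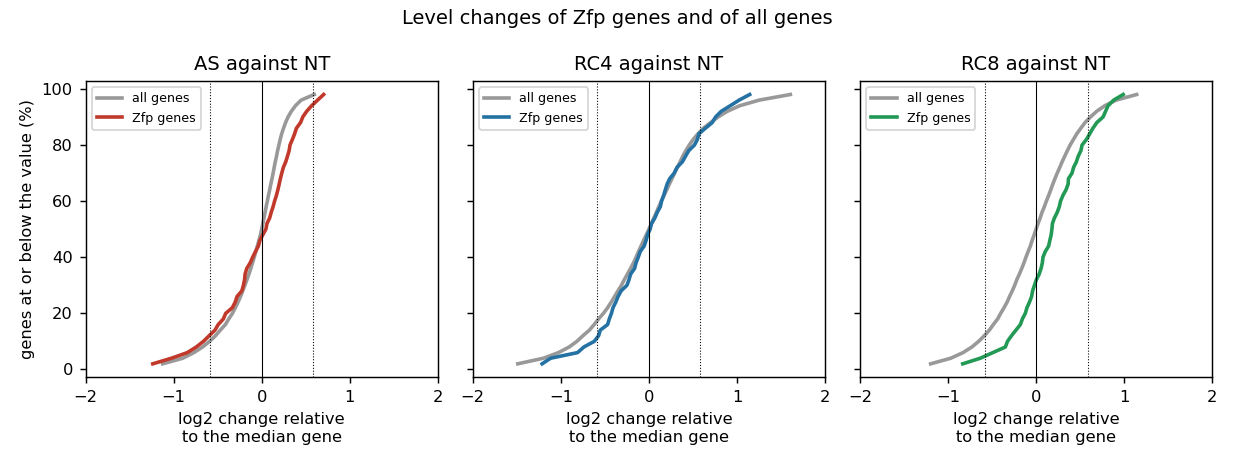
Share of genes at or below a given log2 change relative to the median gene (x axis), for Zfp genes (color) and all genes (gray) in AS, RC4 and RC8 against NT, from the second to the 98th percentile, with dotted lines at 1.5-fold. In RC4 the curves cross 50% at 0.01 and 0, while in RC8 the Zfp curve crosses at 0.18 and is to the right of the gray curve over the lower range.

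Among members with at least 200 reads, the 5 highest at 8 h were other genes than at 4 h, apart from Zfp65. Over all members, Zfp970 at 1.16, Zfp984 at 1.08 and Zfp788 at 1.02 were higher still, with 56, 167 and 59 reads in NT. Zfp213 had 9.26 RPM in NT, and 10.9, 5.63 and 18.5 under AS, RC4 and RC8, with a log2 change in RC8 of 0.99 (0.75 to 1.24). Zfp593, a factor in the assembly of the large ribosomal subunit, had 52.8, 59.7, 66.2 and 105.2 RPM and log2 changes of 0.22, 0.63 and 0.99 (0.89 to 1.09 in RC8). Zfp120 was at 0.91 and Zfp316 at 0.86. Zfp593 had the highest level among these 5 genes in each library.

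The lowest members in RC8 with at least 200 reads were Zfp266 at −0.83, Zfp106 at −0.81, Zfp281 at −0.71, Zfp938 at −0.60 and Zfp652 at −0.60. Zfp281, which binds GC-rich promoters, had 96.3 RPM in NT, and 65.3, 50.8 and 59.1 under AS, RC4 and RC8. It was below NT in all 3 libraries, with log2 changes of −0.52, −0.62 and −0.71.

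The treated libraries were also compared with each other, over genes listed in both tables. In RC4 against AS, 30 of 184 members (16.3%) were called higher and 30 lower, with 18% and 17% of all genes, and the median was −0.02 (−0.13 to 0.11). In RPM, 22 were called higher and 58 lower, with 12.4% and 26.7% of all genes, and the median was −0.24. In RC8 against RC4, 47 of 188 (25%) were called higher and 10 (5.32%) lower, with 18.5% and 14.2% of all genes, and the median was 0.18 (0.07 to 0.30). In RPM, 76 were called higher and 3 lower, with 30.8% and 6.47% of all genes, and the median was 0.44. The median gene itself differed in RPM by −0.22 in the first of these comparisons and by 0.27 in the second. Of the 183 members in all 3 tables, 90 (49.2%) were within 1.5-fold of NT in each of AS, RC4 and RC8, beside 49.9% of the 9875 genes in all 3 tables. Of the same 183 members, 50 (27.3%) were above 0 in all 3 libraries and 28 (15.3%) were below 0 in all 3, beside 19.3% and 21.1% of all genes. The comparisons with NT share that library, and those between treated libraries share AS, RC4 or RC8 with them.

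Members were then ordered by what their proteins do. The shares of all genes called higher, to be read beside the counts of each group, were 2.07%, 15% and 11.1% in AS, RC4 and RC8, and those called lower were 10.2%, 17.4% and 12.1%. Of 10 members on a list of RNA, ribosome or splicing roles, 9 were in the tables. None of the 9 was called higher and 2 were called lower in AS (Zfp106 and Zfp871), 2 were called higher and 1 lower in RC4, and 0 and 1 in RC8. Zfp593, the ribosome assembly factor described above, was not on that list and was called higher in RC4 and RC8. The 2 higher ones in RC4 were Zfp622, a factor in the maturation of the large ribosomal subunit, and Zfp326, which links splicing to elongation. Zfp622 had 72.1 RPM in NT, and 95.2, 103.0 and 104.7 under AS, RC4 and RC8, and Zfp326 had 38.9, 32.8, 48.5 and 34.9. Zfp622 was thus above NT in all 3 treated libraries, and Zfp326 was above it in RC4 and below it in AS and RC8. Zfp346, which binds double-stranded RNA, changed by 0.16 in AS, −0.42 at 4 h and 0.07 at 8 h of recovery, and Zfp830 by 0.09, 0.20 and −0.05. Zfp385a was not listed.

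Among ubiquitin or SUMO ligases, Zfp91 changed by −0.19 in AS, 0.16 at 4 h and −0.31 at 8 h of recovery, and Zfp598 by 0.26, −0.33 and −0.05. Neither reached 1.5-fold in any library, and Zfp451, described above, was called lower in AS. Of the 13 members listed as widely expressed activators or repressors, 9 were in the tables, of which 0 were called higher and 3 lower in AS, 0 and 2 at 4 h, and 2 and 1 at 8 h of recovery. Zfp148, which binds GC-rich promoters like Zfp281, had 33.8 RPM in NT, and 18.1, 20.1 and 38.2 under AS, RC4 and RC8. Zfp143, an activator at promoters of small nuclear RNA genes and of many coding genes, had 12.1, 17.4, 13.1 and 19.1. The log2 change of Zfp148 in AS was −0.86 and that of Zfp143 in RC8 was 0.66. Zfp521 was also called lower in AS at −0.74, Zfp219 lower in RC4 at −0.64 and Zfp746 higher in RC8 at 0.76. Zfp384 lay between −0.23 and −0.010 and Zfp263 between −0.22 and −0.12 in the 3 comparisons. Zfp131, Zfp161, Zfp711 and Zfp423 were not listed.

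All 5 members listed for chromatin complexes were in the tables. In AS, 2 of them were called lower, Zfp532 at −0.62 and Zfp462 at −0.60, and in RC4 Zfp462 was called higher at 0.69 and Zfp687 lower. Zfp592, which is found with Zfp687 and Zfp532 in a complex, changed by 0.20, −0.19 and 0.07, and Zfp827 by −0.36, −0.32 and −0.041. None of the 5 was called in RC8.

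Of 8 KRAB proteins known for silencing retroelements or imprinted genes, 4 were listed. Zfp809, which silences murine leukemia virus DNA, had 10.5 RPM in NT, and 11.6, 9.83 and 14.5 under AS, RC4 and RC8, and Zfp932, a repressor of endogenous retroviruses, had 10.5, 9.54, 6.595 and 7.48. Zfp445, which protects imprints and in which the pattern used here found no KRAB motif, had 65.0, 36.9, 47.7 and 68.6, and it was called lower in AS at −0.77 (−0.90 to −0.65). Zfp568, a repressor of a placental transcript of Igf2, was in the table of RC8 alone, at 0.65 with 84 reads in NT. Zfp57, Zfp708, Zfp459 and Zfp458 were not listed.

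Genes for partner proteins were examined as well. Of 21 KRAB partners and heterochromatin factors, 19 were listed, of which 0 were called higher and 5 lower in AS, 1 and 7 at 4 h, and 0 and 2 at 8 h of recovery. The shares of all genes called lower were 10.2%, 17.4% and 12.1%, and the partners had medians of −0.27, −0.44 and −0.19. Trim28, the partner that KRAB domains bind, had 108.0 RPM in NT, and 113.1, 47.3 and 119.8 under AS, RC4 and RC8. Setdb1 had 25.7, 14.7, 8.30 and 20.7. Both were lowest in RC4, at log2 changes of −0.89 and −1.33.

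Members with a KRAB motif and members without one were set side by side. In AS, the median change of 80 listed members with a motif was 0.17 (0.03 to 0.24), and that of 120 members without was −0.02 (−0.18 to 0.09). In AS, 8 with a motif (10%) and 2 without (1.67%) were called higher, beside 2.07% of all genes, and 7 (8.75%) and 19 (15.8%) were called lower, beside 10.2%. In RC4, the medians were 0.03 and −0.06. There, 7 of 73 with a motif (9.59%) and 20 of 110 without (18.2%) were called higher, beside 15% of all genes, and 6 (8.22%) and 14 (12.7%) were called lower, beside 17.4%. In RC8 the medians were 0.25 and 0.16. There, 14 of 85 with a motif (16.5%) and 18 of 119 without (15.1%) were called higher, beside 11.1%, and 7 (8.24%) and 4 (3.36%) were called lower, beside 12.1%. The intervals of the 2 groups overlapped in each comparison. The order of the medians in RC4 turned with a stricter motif, to −0.017 with it and −0.0083 without, and with at least 200 reads, to 0.039 and 0.087. In AS the median with a motif was 0.050 with at least 200 reads, and that without was −0.067. The median level in NT was 9.46 RPM with a motif and 14.05 without, and the part of read number in these shares was not tested.

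**Figure D3:**
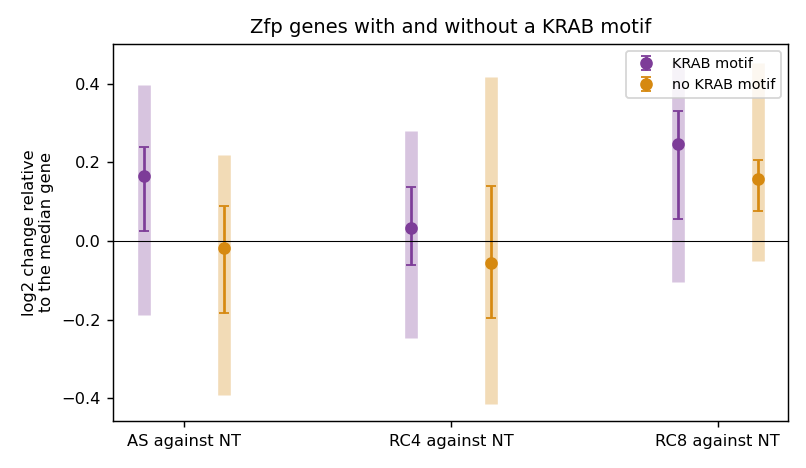
Median log2 change relative to the median gene (y axis) of Zfp genes with and without a KRAB motif in AS, RC4 and RC8 against NT, with 95% order-statistic intervals (thin bars) and quartiles (thick bars). The medians with a motif, 0.17, 0.03 and 0.25, are above those without, −0.02, −0.06 and 0.16, the intervals overlap in each comparison, and the order in RC4 turns with a stricter motif or with at least 200 reads.

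By number of fingers, members with 11 or more had medians of 0.04, 0.07 and 0.24 in AS, RC4 and RC8, and those with 1 to 5 had −0.0049, −0.10 and 0.18. The 6 members without a finger had medians of 0.08, 0.82 and 0.41, and 4 of the 6 were called higher in RC4, beside 15% of all genes. One of these was Zfp703 and another was Zfp365, which had 33.4 RPM in NT, and 17.3, 45.0 and 41.9 under AS, RC4 and RC8.

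Chromosomal clusters were examined next. In the cluster at chr13:67591104-67806161 of mm9, which holds Zfp58, Zfp87, Zfp748, Zfp729a, Zfp738 and Zfp65, all listed members were above 0, 5 of 5 in AS, 5 of 5 in RC4 and 6 of 6 in RC8, with medians of 0.34, 0.81 and 0.54. This cluster was singled out after the values had been seen. Zfp738 had 5.30 RPM in NT, and 6.595, 8.43 and 9.13 under AS, RC4 and RC8, and Zfp87 had 7.002, 8.02, 8.39 and 9.39. The levels were low, with 57 to 305 reads per gene in NT in the table of RC8, and whether reads were split between similar neighboring copies was not tested.

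The largest clusters, of 11 and 10 members on chromosome 17 and of 10 on chromosome 7, had mixed directions. In the cluster of 11 members, which includes Zfp871, 7 of 10 listed members were above 0 in AS, 7 of 9 in RC4 and 10 of 11 in RC8. In that of 10 members on chromosome 7, it was 6 of 9, 3 of 7 and 5 of 10. Values within a cluster thus spread to both sides of 0, from −1.24 to 0.89 in AS in the first.

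Other zinc finger families are given for comparison. Of 26 Zbtb genes listed in AS, which pair fingers with a BTB domain, 1 was called higher and 8 lower, beside 2.07% and 10.2% of all genes, and the medians were −0.24 in AS, 0.06 at 4 h and 0.08 at 8 h of recovery. The median of Klf genes was −0.32, 0.28 and 0.07, over 9 to 11 genes. That of Zkscan genes was 0.32, −0.32 and 0.12, over 4 to 5 genes. For Zscan genes it was 0.06, 0.27 and 0.50, over 3 to 5 genes. Zfp36, left out by the selection, encodes an mRNA decay factor and had 9.84 RPM in NT, and 32.9, 13.4 and 7.18 under AS, RC4 and RC8, a log2 change of 1.78 in AS. The difference between these families and Zfp genes was not tested.

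A single PAS was listed for 55.2% of members in the table of AS, 53.6% in that of RC4 and 54.2% in that of RC8, compared with 49.4%, 47.0% and 48.7% of all genes. An intron PAS was listed for 25 members in AS, 24 at 4 h and 30 at 8 h of recovery, which was 11.9%, 12.5% and 13.9% of the members and compares with 12.9%, 13.8% and 12.9% of all genes. The intron share of a gene is the share of its reads assigned to intron PASs.

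Over all reads of members, the intron share was 14.7% in NT and 15.3% in AS in the table of AS, 14.5% and 14.2% in that of RC4, and 14.7% and 15.4% in that of RC8. The corresponding shares for all genes were 5.93% and 5.91%, 5.99% and 6.30%, and 5.92% and 5.93%. Zfp207 alone had 10070 of the members' intron reads in NT in the table of AS, and 10480, 5734 and 12704 in AS, RC4 and RC8. Without Zfp207, the intron share of members was 5.43% in NT and 4.68% in AS, 5.54% and 8.04% at 4 h, and 5.55% and 5.13% at 8 h of recovery. In RC4 the share was thus 2.498 percentage points above NT without Zfp207, and with it the share dropped by 0.277 points.

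The PASs of Zfp207 are at chr11:80209522, 80209644 and 80209748 on the plus strand and had 32.4%, 61.7% and 5.87% of its reads in NT in the table of AS. All 3 are typed as intron PASs in the tables. In GENCODE vM1 they lie in exon 11 of 11, the last exon, of the transcript with the longest coding sequence, so the label depends on the annotation. In the table of RC4 another PAS, chr11:80219376, was listed in the 3′-most exon, and the intron share was 95.1% in NT (94.7% to 95.5%) and 91.8% in RC4 (91.1% to 92.5%).

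The same comparison with GENCODE vM1 was made for 38 intron PASs of 29 members. Of these, 30 lay in an intron of the transcript with the longest coding sequence, and 12 of the 30 were also in the last exon of another transcript. The 2 PASs of Zfp318 lay in its last exon, like those of Zfp207. In 5 members in the table of AS, 3 in that of RC4 and 5 in that of RC8, no other PAS was listed and the share was 100% in both libraries, so it could not differ. Zfp318 and Zfp950 were in all 3 of these groups, and Zfp207, Zfp30, Zfp931 and Zfp961 were in 1 or 2 of them.

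Differences of at least 10 percentage points were counted. In AS, the intron share was higher by that much in 1 of 25 members and lower in 2, with 7.06% and 3.87% of all genes with an intron PAS. In RC4, it was higher in 8 of 24 members and lower in 2, with 17.1% and 3.73% of all such genes. In RC8, it was higher in 2 of 30 and lower in 4, with 5.89% and 7.15%. With at least 200 reads in each library, the 8 members in RC4 became 4. No share of all genes was taken at that read minimum, so this count shows the effect of the minimum alone. Of the 4 members named by rank but under 10 points in every comparison, Zfp52 went from 15.7% in NT to 7.42% in AS and 7.44% in RC8, Zfp507 from 55.7% to 63.5% in AS, and Zfp560 and Zfp532 moved by less than 7 points. The summed share of Zfp507 in RC4 was 58.5%, but its 2 intron PASs, both at A-rich tracts, moved in opposite directions there. The one at chr7:36587025 went from 36.1% in NT to 17.9% in RC4 and the one at chr7:36577084 from 19.6% to 40.5%.

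Zfp444 had the largest difference in RC4. Its intron PAS is in intron 2 of 5 exons, 15784 bases from the PAS of its 3′-most exon. The sequence shown above has AATAAA at more than 1 place. An A-rich tract lies in the bases after the PAS, which are not shown. The intron share was 49.1% in NT (44.4% to 53.9%, 95% Wilson interval), 52.8% in AS (48.5% to 57.1%), 85.5% at 4 h (82.4% to 88.1%) and 54.4% at 8 h of recovery (49.7% to 59.0%). The RC4 interval did not overlap the others. The level of the gene was 19.0 RPM in NT, and 22.8, 25.03 and 18.8 under AS, RC4 and RC8, and most of its reads in RC4 were on the intron PAS.

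Zfp655, the member with the highest level change at 4 h, had an intron share of 35.6% in NT, 25.9% in AS (22.5% to 29.6%), 51.2% at 4 h (48.4% to 54.0%) and 32.1% at 8 h of recovery. Its intron PAS is in intron 2 of 4 exons, and neither hexamer was in its 30 bases. The share was thus lower in AS and higher in RC4 than in NT. Zfp367 had 32.0%, 33.7%, 45.6% and 30.2%, and its sequence above ends in a long run of A.

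Zfp672, Zfp239, Zfp280d, Zfp697 and Zfp952 were the other members with a share at least 10 points higher in RC4. In Zfp672 it was 19.2% in NT, 20.3% in AS, 37.3% at 4 h and 14.4% at 8 h of recovery, with 169 reads at 4 h. In Zfp280d it was 61.2% in NT, 75% in RC4 and 79.0% in RC8, and it was 57.5% in NT and 60.6% in AS in the table of AS. Zfp280d was thus high at both times of recovery and Zfp672 at 4 h alone.

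In the opposite direction, Zfp800 had an intron share of 50% in NT and 22% in RC4 (16.9% to 28.2%). Its NT share was 55.6% in the table of AS and 31.1% in that of RC8 from the same reads, so the value depends on which PASs were listed. Zfp809 had 32.5% in NT, 31.9% in AS, 21.5% at 4 h and 15.7% at 8 h of recovery (12.2% to 19.996%), and the PAS listed in the table of RC4 was another one than in the other tables. Zfp407 had 25.6% in NT (20.3% to 31.7%) and 9.79% (6.002% to 15.6%), 17.3% and 7.79% (5.31% to 11.3%) in AS, RC4 and RC8. The intervals of Zfp407 in AS and RC8 overlapped each other and lay below that of NT. In RC8, Zfp839 and Zfp239 were also lower by at least 10 points, at 17.4% and 25.3% against 41.2% and 36.7% in NT, and Zfp287 was higher, at 53.8% against 28.3% with 61 reads in NT.

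In AS, the members past 10 points besides Zfp407, which had 151 reads there, were Zfp932 and Zfp451. Zfp932 had 74.0% in NT (68.1% to 79.2%), 89.0% in AS (84.1% to 92.5%), 82.9% in RC4 and 73.3% in RC8. Zfp451 had 74.9% in NT (72.9% to 76.8%), 62.0% in AS (58.9% to 65.1%) and 73.2% in RC8, and 75.8% in NT and 82.8% in RC4 in the table of RC4. All 3 intron PASs of Zfp451 are in intron 3 of 15 exons and in the last exon of another transcript. The sequence shown is at the one with most reads in NT, which moved against the summed share in AS, from 34.7% to 42.1%. The PAS at chr1:33848981 went from 23.1% to 10.5% in AS, and the one at chr1:33851959 from 17.2% to 9.4%. In RC4 against NT, the PAS shown went from 36.9% to 37.6%. The one at chr1:33848981 went from 22.3% to 29.5%, and the one at chr1:33851959 from 16.6% to 15.7%. The intron share and the level of Zfp451, described above, were both lower in AS and higher in RC4 than in NT.

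**Figure D4:**
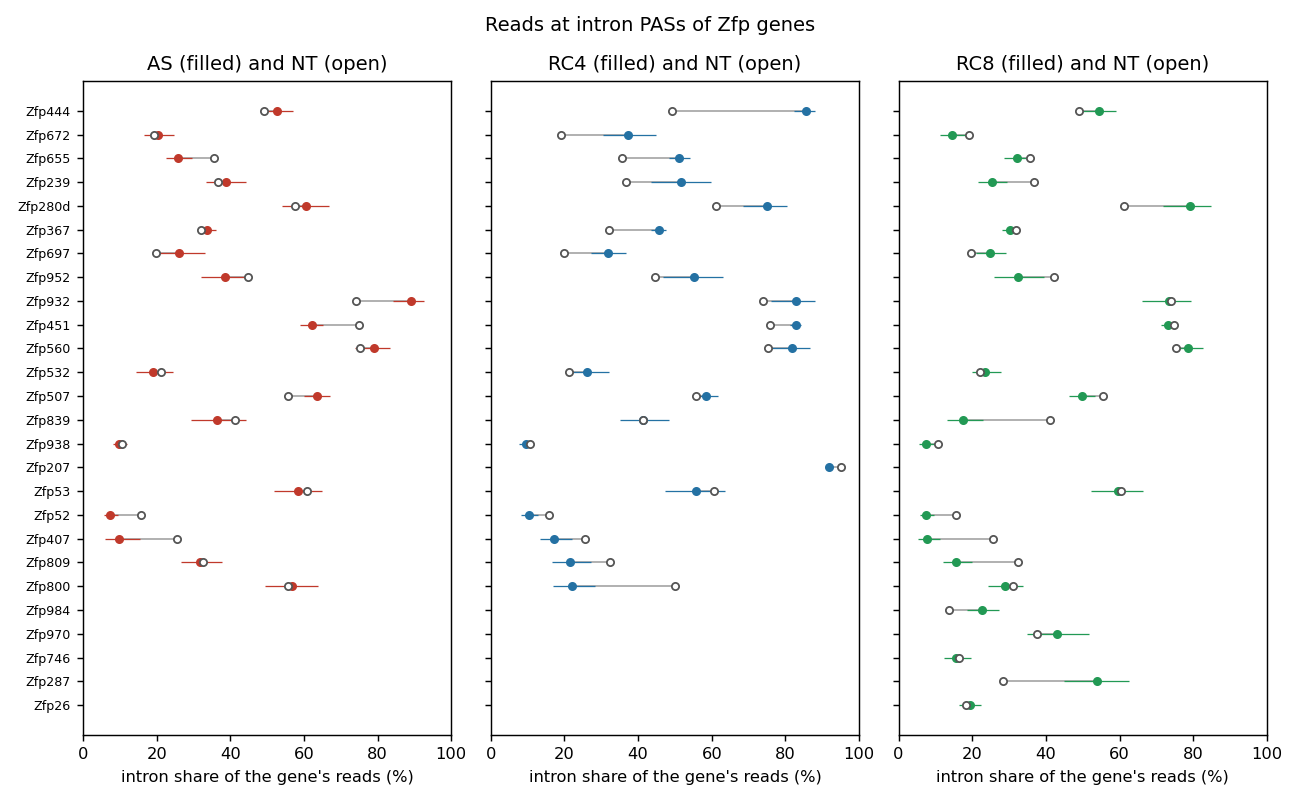
Intron share of reads in percent (x axis) of the Zfp genes with both an intron PAS and a PAS of the 3′-most or single exon, in NT (open) and in AS, RC4 or RC8 (filled, with 95% Wilson intervals), ordered by the difference in RC4 with members not listed there at the bottom. Zfp444 moves from 49.1% to 85.5% in RC4, and Zfp800 from 50% to 22%.

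Length changes within the 3′-most exon were measured by REDu, the log2 ratio of reads at the distal over the proximal PAS in the treated library minus that in NT, for the pair of PASs with the largest changes. A negative score means relatively more use of the proximal PAS, that is, a shorter 3′ end. The median REDu of Zfp genes was −0.32 in AS over 78 genes (−0.60 to −0.04), −0.34 in RC4 over 73 (−0.57 to −0.15) and −0.17 in RC8 over 80 (−0.33 to 0.21). Over all genes it was −0.22, −0.37 and −0.14. The median distance between the PASs of a pair was 921.5 bases for Zfp genes in AS and 543 for all genes.

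A REDu of −1 or lower was found in 10 members in AS (12.8%), 15 at 4 h (20.5%) and 8 at 8 h of recovery (10%), with 8.74%, 21% and 13.7% of all genes. A REDu of 1 or higher was found in 1 member in AS, 6 at 4 h and 9 at 8 h of recovery (1.28%, 8.22% and 11.2%), with 2.82%, 6.16% and 11% of all genes. The shares of Zfp genes were thus within 5 percentage points of those of all genes in each case.

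Zfp266, low in level in every treated library, had relatively more reads at its proximal PAS in AS and RC4. That PAS, 4608 bases upstream of the distal one, had 3.83% of reads in NT, 13.5% in AS and 17.4% in RC4, which gave a REDu of −1.97 in AS (counting error 0.30) and −2.40 in RC4 (0.32). Zfp462 had a REDu of −2.77 in RC4 (0.32), with 12.1% of reads at the proximal PAS in NT and 23.8% in RC4. Zfp91 had −2.02 in RC4 (0.29), where the distal PAS went from 6.19% to 1.58%.

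Zfp281 went the other way with the same pair of PASs in each comparison, 1776 bases apart. Its proximal PAS had 39.0% of reads in NT, 32.6% in AS, 21.0% at 4 h and 17.1% at 8 h of recovery, and its REDu was 0.50 in AS (0.11), 1.52 at 4 h (0.13) and 1.90 at 8 h (0.13). Zfp652 had a REDu of 3.35 in RC8 (0.42), for PASs 182 bases apart of which the proximal one went from 21.5% to 3.46%. In AS the score of Zfp652 was −1.71 (0.32) over another pair 2821 bases apart, so these values do not describe the same PASs.

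Zfp512 had a REDu of 3.35 in RC4 with the largest counting error of the genes named here, 0.59, and its distal PAS had 1.09% of reads in NT. Zfp442 had 1.22, 2.68 and 2.36 in AS, RC4 and RC8, but its PASs are also listed under Gm14122, and the reads of the 2 genes cannot be told apart. In AS, Zfp26 and Zfp668 had −2.34 (0.33) and −1.77 (0.38), Zfp329 and Zfp369 had 0.88 (0.30) and 0.85 (0.24), and in RC8, Zfp771 and Zfp334 had −2.17 (0.35) and −1.39 (0.31).

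The score REDi compares a PAS of an intron or upstream exon with one of the 3′-most exon in the same way, and a negative value means relatively more use of the upstream PAS. Its median in Zfp genes was −0.07 in AS over 21 genes (−0.30 to 0.37), −0.80 in RC4 over 22 (−1.32 to 0.30) and 0.17 in RC8 over 26 (−0.31 to 0.97). Over all genes it was −0.17, −0.40 and 0.18, values within the wide intervals of the Zfp genes. Zfp444 had the lowest REDi of the members in RC4, −2.61 (counting error 0.22).

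**Figure D5:**
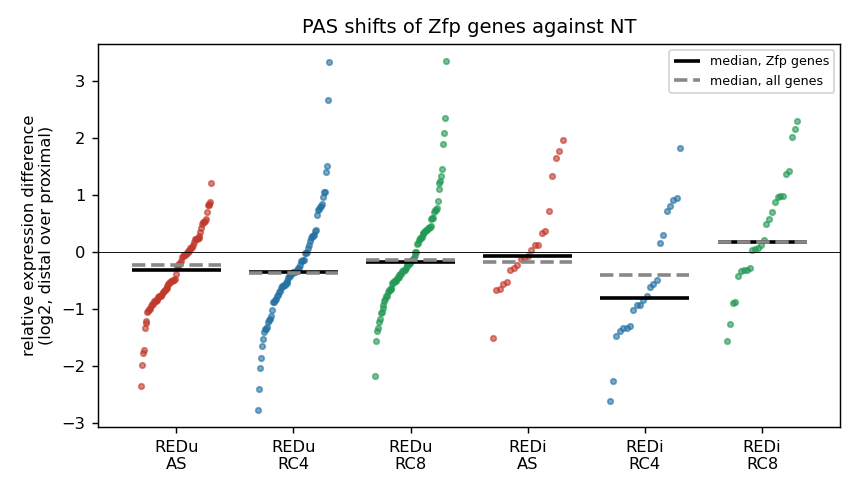
REDu and REDi (y axis, log2 of distal over proximal, treated minus NT) of each Zfp gene in AS, RC4 and RC8, ordered by value within a column, with the medians of Zfp genes (solid) and of all genes (dashed). The median REDu is below 0 in each comparison, and the median REDi of Zfp genes is lowest in RC4 at −0.80.

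Some values rest on ambiguous reads. PASs of Zfp414, Zfp442, Zfp786 and Zfp866 are listed under another gene as well. In 5 members in the table of AS, 5 in that of RC4 and 4 in that of RC8, 1 of the 2 count columns of a library was 0, and these libraries had at most 64 reads of the gene. Of these, 1 was called higher and 4 lower in AS, 5 lower in RC4, and 2 higher and 1 lower in RC8. Zfp788 and Zfp970, given above for high values over all members, were among them. None of the members with at least 200 reads named for a level change was.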

How the data were processed

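For each gene, the authors gave counts of reads as whole numbers in 2 columns per library, which were added here. The fraction of a gene's reads at each PAS was deposited by the authors and multiplied by the gene's reads. The authors trimmed reads with bbmap, mapped them to mm9 with STAR (version 2.5.2a per the submitters' processing notes) and ran MAAPER with PolyA_DB v3 PASs on genes with at least 50 reads, selecting PASs at a proportion of 5%. The mapping kept reads that fit several places, so paralogs may share reads. RPM was computed here. The tables also hold the authors' P values and their RLDu, RLDi, RED and Fisher columns, which are their own comparisons and were not used.

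Samples were grouped by their GEO labels. Depth on genes was 22441452 to 22996421 reads per library. The reads carry no molecular identifiers and so are not counts of independent molecules, and intervals cover counting error only. Ratios have exact conditional binomial (Clopper-Pearson) intervals, shares have Wilson intervals and medians have order-statistic intervals, all at 95%. The counting error of a RED score is the root of the summed inverse reads of its 4 cells on the log2 scale. REDu and REDi followed the formula of the methods.

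Calls used 1.5-fold relative to the median gene or 10 percentage points. Named were members with at least 200 reads in both libraries of a table that had the 5 highest or lowest level changes, the 4 largest intron share changes in either direction or the 3 lowest or highest REDu in a comparison, the 5 most abundant in NT, members of role lists, and Zfp444. The members and lists were chosen with earlier results of these data known, and a few other genes were named after their values were seen.

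A C2H2 finger (paired C and paired H at the usual spacings) and a KRAB A-box pattern were searched in coding sequences of GENCODE vM1, 1 per gene, translated here in place of the planned RefSeq proteins. PAS windows were read from mm9. An A-rich tract was 8 A in a row from 15 bases before to 20 bases after the PAS, or 6 A in a row or 7 A in 10 bases after it. Analyses ran in Python 3.11.15 with pandas 2.3.3, and the measures were tested on simulated data. Alternatives were other scalings, thresholds, read minimums and count columns. QuantSeq REV libraries were not analysed here.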

Additional observations from a re-analysis of the deposited data

Results flagged for a closer look

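Members with at least 200 reads that were called in opposite directions in a pair of comparisons with NT were looked for, and there were 2. Genes outside the family were not searched in this way, so no share of all genes stands beside this number. Zfp365, a coiled-coil protein of the centrosome, had a log2 change of −0.90 in AS and 0.73 in RC4. Zfp462 had −0.60 in AS and 0.69 in RC4. The difference between the 2 changes was not tested, since each condition has 1 library and both changes use the NT library.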

How the results depend on the processing

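No paired analysis was possible because each condition has 1 library, and for the same reason no library could be left out. For the family as a whole, 106 alternative values stayed within 1.5 times the count or within the interval and 51 did not. Among named genes these numbers were 126 and 24, and no called value changed sign.

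Relative to all reads of the table or to the library's read number instead of the median gene, members called higher in RC4 went from 29 to 14 or 12 and lower from 21 to 56 or 57, with a median of −0.29 or −0.31. In RC4 against AS, those called lower went from 30 to 58 or 59 (median −0.24 or −0.26). In RC8 against RC4, those called higher went from 47 to 76 or 84 and lower from 10 to 3 in both (median 0.44 or 0.49). These scalings leave in the shift of the median gene. With at least 200 reads, fewer genes are counted: 5 higher and 17 lower in AS, 17 and 11 in RC4, 16 and 5 in RC8, 16 and 14 in RC4 against AS, and 23 higher in RC8 against RC4. These are of 103 members in RC4, 100 in RC4 against AS and 106 in RC8 against RC4. Of all such genes, 13.4% were higher and 15.1% lower in RC4, and 16.9% and 14.9% in RC4 against AS. In RC8 against RC4, 16.7% were higher. At 2-fold there were 1 and 9 for AS, 9 and 10 for RC4, 3 and 1 for RC8, 17 and 8 in RC4 against AS, and 14 and 1 in RC8 against RC4. No share of all genes was taken at 2-fold, so these counts show the effect of the threshold alone. With the first count column alone, 19 were called higher in AS, and the cause was not tested. No share of all genes was taken with that column, so whether all genes moved alike is not known.

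For the intron share at 20 points, 0 members were higher and 0 lower in AS, 1 and 1 at 4 h, and 1 and 1 at 8 h of recovery. With at least 200 reads, 1 was lower in AS, 4 were higher in RC4 and 0 were higher in RC8. No share of all genes was taken at 20 points or at that read minimum, so these counts show the effect of the settings alone. The pooled difference was 0.62, −0.28 and 0.68 points in AS, RC4 and RC8, but −0.75, 2.498 and −0.42 without Zfp207, and −0.71, 4.29 and −1.31 as the mean of the members' shares.

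Further alternatives were chosen after seeing the data (genes with both kinds of PAS, no member that shares a PAS, no gene with a 0 in a count column). Low read numbers limit single members, and differences between cultures cannot be assessed.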
